A study of Homo sapiens with 9 samples.

Results

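Transcript levels of 36 genes of sterol and fatty acid synthesis, of 57500 genes in the count files, were followed in human cells given a fluorogenic RNA ligand or vehicle. The rule lists the 36 genes by name for their role and uses no measured value, although it was drawn up with earlier results of these data known. They fall into 20 enzymes of the mevalonate and sterol pathway, 7 regulators and uptake genes around the transcription factor SREBP, 2 cholesterol efflux transporters driven by the nuclear receptor LXR, and 7 enzymes of fatty acid synthesis and desaturation. All 36 were named in the deposited tables, and all 36 passed the filter on low counts in each comparison. The cells were HEK293T, an established line of transformed human embryonic kidney cells, and no transfection or genetic change is named for these libraries. They were incubated for 5 h with DMSO, with 10 µM HBC530, or with 10 µM MsOc3HBC, and poly(A) RNA was sequenced from 3 biological replicates per treatment, 9 libraries in all. HBC530 is a fluorophore that binds the Pepper aptamer, an RNA selected to light it up, without forming a bond. MsOc3HBC is the same kind of fluorophore carrying a mesyloxypropyl arm, which can alkylate a guanine of that aptamer. The profiling was done to see whether the ligands, and the reactive one above all, disturb the transcripts of the cell. In bulk libraries fewer cells with a transcript and less of it per cell cannot be told apart.

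Cholesterol is built from acetyl-CoA through mevalonate, the isoprenoid units, squalene and lanosterol. SREBP-2, encoded by SREBF2, switches on most of these enzymes when membrane sterol is low, while SREBP-1, encoded by SREBF1, drives fatty acid synthesis. SCAP carries both factors from the endoplasmic reticulum to the Golgi for cleavage, and the INSIG proteins hold SCAP back when sterol is plentiful. INSIG1 is itself a target of SREBP, so that its transcript follows the activity of the pathway. When sterols are in excess, oxidised sterols activate LXR, which raises the efflux transporters ABCA1 and ABCG1, the ubiquitin ligase MYLIP and SREBF1.

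Replicate 3 of HBC530 and replicate 3 of MsOc3HBC stood apart from the other 7 libraries over all genes. On the first principal component, which held 37.3% of the variance, they lay at 36.9 and 48.8, and the rest between -20.3 and -4.28. They were also the libraries with the fewest counts, 34963314 and 28056929 of a range that reached 62205366, and fold changes without them are given below where leaving them out turned the sign or moved the value by over 1.5 times. Libraries of HBC530 and MsOc3HBC with the same number deviated together across genes, so that this comparison is also given with the replicate as a block. The label HEK293T was checked on marker genes. KRT8, KRT18, VIM, NEFL and NEFM had between 1986 and 15030 counts in every library, and PAX2 between 56 and 238. The blood marker PTPRC had at most 2 counts, the endothelial PECAM1 at most 6 and the hepatocyte marker ALB at most 3, while TTR had 18 to 97 and the fibroblast gene COL3A1 148 to 435.

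RefSeq promoter windows of assembly GRCh38.p14, running from 250 bases before to 50 bases after the start of the gene, were given for 31 of the 36 genes, and 250 bases upstream of the start are printed here for 4 of them. HMGCS1 had the smallest p of the members with HBC530, INSIG1 had the smallest with MsOc3HBC, STARD4 codes for the sterol carrier of the group, and SREBF2 was the only member with a match to the letters searched for the sterol regulatory element. Capitals mark 3 motifs searched on both strands, TCACNCCAC for the sterol regulatory element, CCAAT for NF-Y and GGGCGG for Sp1, the last of which can overlap itself. The windows lie at chr7:155297628-155297877 on the plus strand, chr5:43313413-43313662 on the minus strand, chr5:111512536-111512785 on the minus strand and chr22:41832855-41833104 on the plus strand, and each sequence reads 5′ to 3′ along the gene. The start is that of RefSeq, and the annotation of the count data places the start of all 4 genes further upstream, inside the window.
INSIG1: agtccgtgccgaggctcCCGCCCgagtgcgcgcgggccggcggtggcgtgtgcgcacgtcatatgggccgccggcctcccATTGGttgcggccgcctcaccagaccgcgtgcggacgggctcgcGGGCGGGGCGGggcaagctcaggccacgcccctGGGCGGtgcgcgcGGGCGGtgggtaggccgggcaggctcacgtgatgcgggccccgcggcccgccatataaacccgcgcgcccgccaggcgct
HMGCS1: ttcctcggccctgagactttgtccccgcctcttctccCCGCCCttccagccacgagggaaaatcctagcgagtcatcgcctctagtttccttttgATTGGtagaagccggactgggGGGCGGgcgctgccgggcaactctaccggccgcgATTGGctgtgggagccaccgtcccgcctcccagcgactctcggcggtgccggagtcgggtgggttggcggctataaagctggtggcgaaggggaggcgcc
STARD4: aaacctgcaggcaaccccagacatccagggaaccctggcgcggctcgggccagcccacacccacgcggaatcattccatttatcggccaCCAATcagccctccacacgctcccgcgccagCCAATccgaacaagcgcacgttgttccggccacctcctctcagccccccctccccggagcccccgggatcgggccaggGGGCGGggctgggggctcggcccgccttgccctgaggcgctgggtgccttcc
SREBF2: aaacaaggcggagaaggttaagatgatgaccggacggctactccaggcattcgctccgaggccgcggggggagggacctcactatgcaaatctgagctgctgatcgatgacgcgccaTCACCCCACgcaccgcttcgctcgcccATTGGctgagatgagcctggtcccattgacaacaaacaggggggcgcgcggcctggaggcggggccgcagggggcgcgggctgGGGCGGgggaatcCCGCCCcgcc

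Over the whole windows CCAAT was found for 22 of the 31 genes, or 71.0%, and in 39.7% of all 27305 genes with a window. GGGCGG was found for 29 of 31, or 93.5%, and in 48.3% of all genes. TCACNCCAC was found for 1 of 31 and in 1.39% of all genes. In the SREBF2 window it reads TCACCCCAC, ahead of a reversed CCAAT, and the INSIG1 window holds 5 GGGCGG and 1 CCAAT. These are matches of letters and were not tested as binding sites. The shares of all genes take in every gene with a window, whether or not it is expressed in these cells. No window was given for ACAT2, FDFT1, SQLE, ABCG1 and FASN.

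Per base of all annotated exons of a gene, 3 fatty acid enzymes had the highest levels of the 36 genes in vehicle-treated cells. The desaturase SCD stood at 139.8 ± 8.7 RPKM (counts scaled to exon length and library total, mean ± SD, n = 3), the citrate lyase ACLY at 137 ± 2.6 and the fatty acid synthase FASN at 103 ± 12, where SCD and ACLY lay within a spread of each other. Of the sterol enzymes, the last reductase DHCR7 was highest at 68.8 ± 1.9 RPKM and NSDHL followed at 67.6 ± 1.8, again within the spread. The sterol carrier gene STARD4, at 2.25 ± 0.24 RPKM, was the lowest outside the efflux pair. ABCG1 at 0.0426 ± 0.011 and ABCA1 at 0.0383 ± 0.015 RPKM were close to silent, with 6 to 20 and 5 to 38 counts per library. The other members lay in between, as the plot of levels shows.

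**Figure D1:**
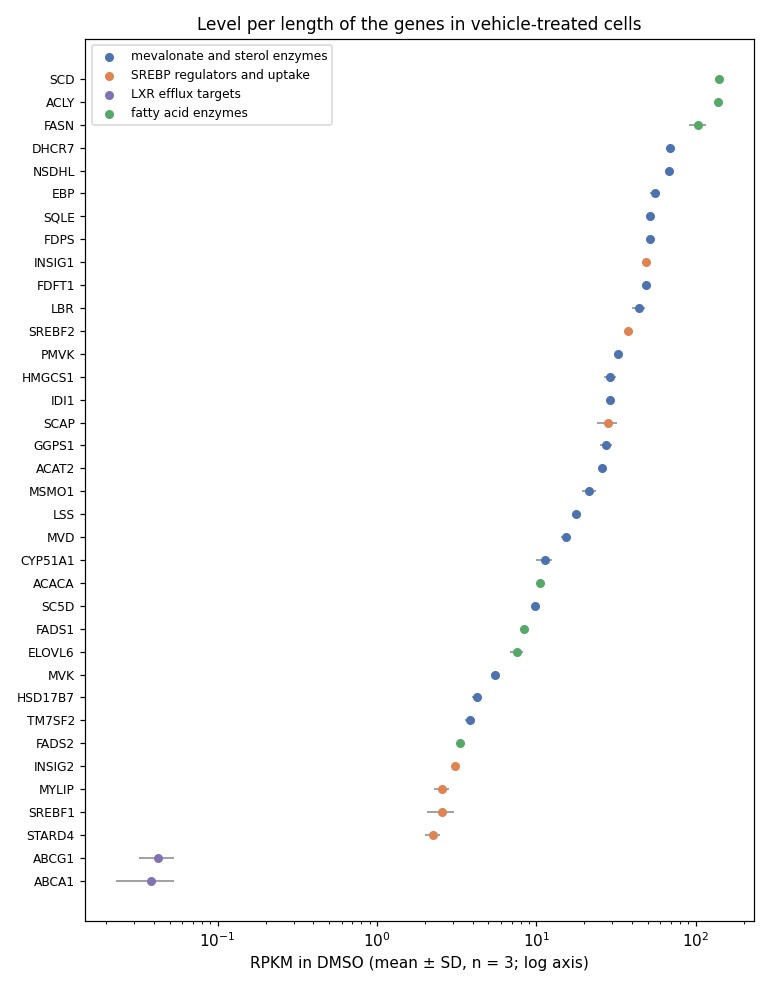
Level of each of the 36 genes in the DMSO libraries, in RPKM on a log axis, as mean (point) and SD (bar) of 3 libraries, coloured by class. SCD, ACLY and FASN are the highest at 139.8, 137 and 103 RPKM, and ABCA1 and ABCG1 the lowest.

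Most sterol and fatty acid genes lay somewhat lower with either ligand, but no single gene passed the test adjusted over all genes. With HBC530, 28 of the 36 had a negative log2 fold change against DMSO and the median was -0.14, beside a median of 0.0046 over all 17684 genes tested. With MsOc3HBC, 30 of 36 were negative and the median was -0.18, beside 0.012 over 17514 genes. Both comparisons use the same 3 DMSO libraries, so they are not independent of each other. In the quasi-likelihood test of edgeR, adjusted after Benjamini and Hochberg over all genes, 0 members had an adjusted p under 0.05 with either ligand, where 0.0170% of all genes did with HBC530 and 0.154% with MsOc3HBC. DESeq2 called 1 member in each comparison, HMGCS1 with HBC530 and INSIG1 with MsOc3HBC, and limma-voom called 0. The shares of all genes that these 2 methods called are not given, so their counts cannot be set against the whole table.

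Without adjustment, 6 members were lower with HBC530 at p under 0.05, HMGCS1, SQLE, SC5D, STARD4, INSIG1 and SCD, beside 2.38% of all genes, and 1 was higher, PMVK, beside 2.70%. With MsOc3HBC 12 were lower, HMGCS1, FDFT1, SQLE, LSS, CYP51A1, LBR, DHCR7, INSIG1, SCAP, ACLY, SCD and ELOVL6, beside 4.78% of all genes, and 0 were higher, beside 6.12%. In shares of the 36 members, the lower ones came to 16.7% with HBC530 and 33.3% with MsOc3HBC. All 3 ligand libraries lay under all 3 DMSO libraries for 14 members with HBC530, beside 6.64% of all genes, and for 12 with MsOc3HBC, beside 8.96%. The reverse held for PMVK alone with HBC530, beside 7.17% of all genes, and for 0 members with MsOc3HBC, beside 9.35%. The fit without HBC530 replicate 3 had 11 members lower at an unadjusted p under 0.05, beside 2.21% of all genes. The fit without MsOc3HBC replicate 3 had 17 lower, beside 7.20%. There were 5 without MsOc3HBC replicate 1, 6 without DMSO replicate 2 and 7 without DMSO replicate 1. The shares of all genes are not given for these last fits, so their counts cannot be set against the whole table.

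**Figure D2:**
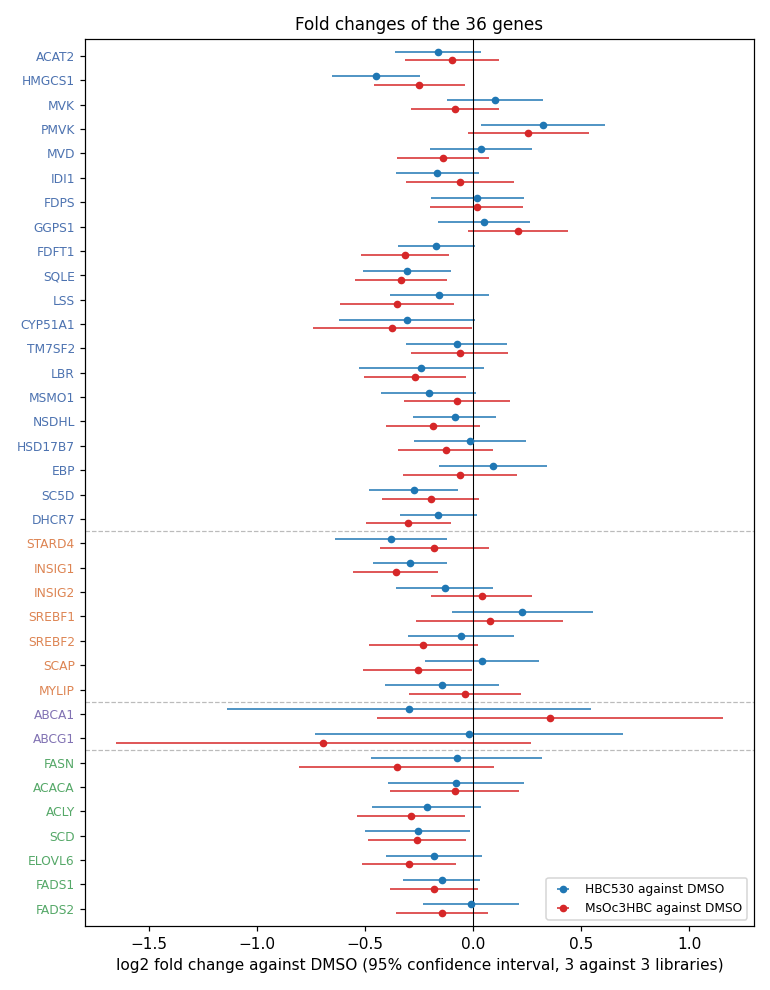
Log2 fold change of the 36 genes against DMSO with HBC530 (blue) and MsOc3HBC (red), each from 3 against 3 libraries, with 95% confidence intervals. Dashed lines part the 4 classes, from the sterol enzymes at the top to the fatty acid enzymes at the bottom, and most points lie left of 0 while PMVK lies right of it with both ligands.

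At the head of the pathway, HMGCS1 had the largest negative fold change of all members with HBC530. The gene codes for the synthase that makes HMG-CoA, the precursor of mevalonate, and lies on chromosome 5, 43289395 to 43313512, minus strand (GRCh38). Its level was 150.0, 131 and 129.6 CPM (counts scaled to the size of the library) in the DMSO libraries, 101, 106 and 93.6 with HBC530 and 114, 121 and 109 with MsOc3HBC. The 3 groups did not overlap, with DMSO highest, MsOc3HBC in the middle and HBC530 lowest. The log2 fold change was -0.45 ± 0.09 (SE) with HBC530, with an unadjusted p of 0.0006 and an adjusted p of 0.586 by edgeR. Over 16 alternatives its adjusted p ran from 0.0139 without a filter on low counts to 0.960 without DMSO replicate 1, and the fold change was negative in all 16. With MsOc3HBC the log2 fold change was -0.25 ± 0.10, with an adjusted p of 0.404 by edgeR. An antisense gene shares 15.0% of its exonic bases and held a mean of 12.3 counts against 5769 of HMGCS1. Only reads that hit 1 gene were counted, so without strand information reads in the shared bases may be missing.

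The kinases and the decarboxylase that turn mevalonate into isopentenyl diphosphate had fold changes on both sides of 0. PMVK, the second of the kinases, was at 40.1, 40.5 and 43.8 CPM with DMSO, 45.1, 47.0 and 63.9 with HBC530 and 46.2, 42.6 and 59.7 with MsOc3HBC. Replicate 3 of each ligand was the highest value of its group, and the HBC530 libraries lay above all DMSO libraries. Against DMSO its log2 fold change was 0.32 ± 0.13 with HBC530 and 0.26 ± 0.13 with MsOc3HBC, with adjusted p of 0.751 and 0.488 by edgeR. Without replicate 3 of the ligand these came to 0.16 and 0.10, a change by more than 1.5 times. The mevalonate kinase MVK had 0.10 and -0.08, and the decarboxylase MVD 0.04 and -0.14, on the same log2 scale with HBC530 and MsOc3HBC. For the thiolase ACAT2 the values were -0.16 and -0.10, and for the isomerase IDI1 -0.17 and -0.06. Without MsOc3HBC replicate 3 the values with MsOc3HBC were -0.19 for ACAT2 (unadjusted p = 0.0141 by edgeR) and -0.20 for IDI1 (0.0101). Without HBC530 replicate 3 those with HBC530 were 0.02 for MVK and -0.06 for MVD. ACAT2 shares 43.0% of its exonic bases with SOD2 on the opposite strand. The strand setting of the counting is not given, so reads in the shared bases may be missing from the counts of both. The prenyl synthases, which lead into sterols and into protein prenylation, stayed near 0 for FDPS at 0.02 and 0.02, and were positive for GGPS1 at 0.05 and 0.21. Without replicate 3 of the ligand FDPS was at -0.08 and -0.07, and GGPS1 at -0.01 and 0.13. None of MVK, MVD, ACAT2, IDI1, FDPS and GGPS1 had an unadjusted p under 0.05 in a comparison with DMSO over all 6 libraries.

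FDFT1 and SQLE, which commit carbon to sterols after farnesyl diphosphate, had negative fold changes with both ligands. FDFT1, the squalene synthase, was at 243, 254 and 259 CPM with DMSO, 220.2, 217 and 234 with HBC530 and 189, 201 and 216 with MsOc3HBC, and no library of MsOc3HBC reached any of HBC530 or DMSO. Its log2 fold change was -0.17 ± 0.08 with HBC530 and -0.32 ± 0.09 with MsOc3HBC, with adjusted p of 0.751 and 0.302 by edgeR. Without MsOc3HBC replicate 3 the latter was -0.37 with an adjusted p of 0.0388, the lowest of 16 alternatives that reached 0.952. SQLE, the epoxidase that follows, was at 235, 219 and 213 CPM with DMSO, 178, 197 and 164 with HBC530 and 159, 189 and 181 with MsOc3HBC. Every ligand library lay under every DMSO library, and the ligands overlapped. On the log2 scale the fold changes were -0.31 ± 0.09 and -0.33 ± 0.10, with adjusted p of 0.751 and 0.302 by edgeR.

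LSS closes the ring to lanosterol. Its level was 120.0, 135 and 132 CPM with DMSO, 123, 124 and 100.1 with HBC530 and 106, 114 and 82.6 with MsOc3HBC, where replicate 3 was the lowest of each ligand. The log2 fold change of -0.16 ± 0.10 with HBC530 came to -0.06 without that library, and that of -0.35 ± 0.12 with MsOc3HBC to -0.23. CYP51A1, the lanosterol demethylase, was at 52.0, 44.1 and 41.4 CPM with DMSO, 39.1, 42.6 and 29.1 with HBC530 and 33.7, 45.4 and 26.4 with MsOc3HBC. Both ligands overlapped DMSO, and replicate 3 was again the lowest of each. In log2 terms its fold change was -0.31 ± 0.14 with HBC530, -0.16 without replicate 3, and -0.37 ± 0.17 with MsOc3HBC, -0.21 without replicate 3. LRRD1 lies across 78.8% of its exonic bases on the same strand with a mean of 1.22 counts. Only reads that hit 1 gene were counted, so reads in the shared bases may be missing and the level of CYP51A1 is uncertain. LBR, a sterol reductase that is also the lamin B receptor of the nuclear envelope, was at 255, 224 and 213 CPM with DMSO, 213, 218 and 155 with HBC530 and 182, 214 and 177 with MsOc3HBC, with overlap between all groups. Its log2 fold change was -0.24 ± 0.13 with HBC530, -0.09 without replicate 3, and -0.27 ± 0.11 with MsOc3HBC.

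The last steps to cholesterol hold SC5D, the lathosterol desaturase, and DHCR7, which reduces its product. SC5D was at 56.9, 54.8 and 51.8 CPM with DMSO, 46.1, 47.8 and 40.9 with HBC530 and 41.6, 49.6 and 51.1 with MsOc3HBC, and neither ligand overlapped DMSO. For SC5D the log2 fold change was -0.27 ± 0.09 with HBC530 and -0.20 ± 0.10 with MsOc3HBC. DHCR7 was at 278, 287 and 294 CPM with DMSO, 257, 268 and 243 with HBC530 and 233, 245 and 218 with MsOc3HBC, also with all ligand libraries under all of DMSO. Its log2 fold change was -0.16 ± 0.08 and -0.30 ± 0.09 for the respective ligands. The adjusted p of LSS, CYP51A1, LBR, SC5D and DHCR7 was 0.304 at the lowest over both ligands by edgeR. The remaining enzymes of the lanosterol to cholesterol segment had no unadjusted p under 0.05 over all 6 libraries. They were the reductase TM7SF2 at -0.08 with HBC530 and -0.06 with MsOc3HBC, the demethylation enzymes MSMO1 at -0.21 and -0.08, NSDHL at -0.08 and -0.19 and HSD17B7 at -0.01 and -0.13, and the isomerase EBP at 0.09 and -0.06. Without replicate 3 of the ligand EBP came to -0.03 and -0.20, the latter with an unadjusted p of 0.0217 by edgeR. NSDHL with HBC530 came to -0.14 (unadjusted p = 0.0371 by edgeR), HSD17B7 with HBC530 to -0.12 and MSMO1 with MsOc3HBC to -0.17. HSD17B7 has a pseudogene copy, HSD17B7P2, with a mean of 51.4 counts, so its own counts are uncertain. Over all 20 sterol enzymes the median log2 fold change was -0.16 with HBC530, with 14 negative, and -0.13 with MsOc3HBC, with 17 negative.

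INSIG1, the sterol-sensing brake that SREBP induces, was the member with the smallest p with MsOc3HBC. It lies on chromosome 7, 155297776 to 155310235, plus strand. The DMSO libraries held 181, 175 and 176 CPM, those of HBC530 141, 148 and 144 and those of MsOc3HBC 133, 133 and 147. All 6 ligand libraries lay under the lowest DMSO library and the ligands overlapped each other. The log2 fold change was -0.29 ± 0.08 with HBC530, with an adjusted p of 0.751 by edgeR, and -0.36 ± 0.09 with MsOc3HBC, with an adjusted p of 0.219. For MsOc3HBC the 16 alternatives gave adjusted p from 0.0213 without MsOc3HBC replicate 3 to 0.822 without DMSO replicate 2, of which 3 were under 0.05, and a negative fold change in each. The 2 members INSIG1 and FDFT1 were those with an adjusted p under 0.05 in the fit without MsOc3HBC replicate 3, in which 0.421% of all genes had one.

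STARD4, a cytosolic carrier of cholesterol that SREBP-2 induces, lies on chromosome 5, 111496033 to 111512590, minus strand. Its level was 14.4, 11.9 and 12.1 CPM with DMSO, 10.6, 10.0 and 8.73 with HBC530 and 10.3, 11.7 and 11.7 with MsOc3HBC, with no overlap of either ligand with DMSO. Its log2 fold change of -0.38 ± 0.12 with HBC530 was the second largest of the members in that comparison on the negative side, and with MsOc3HBC it was -0.18 ± 0.11. SCAP, the escort of SREBP, was at 147, 191 and 191 CPM with DMSO, 187, 196 and 162 with HBC530 and 149, 154 and 139 with MsOc3HBC. DMSO replicate 1 was low in SCAP and lay among the MsOc3HBC libraries. For SCAP the log2 fold change was 0.04 ± 0.12 with HBC530 and -0.26 ± 0.11 with MsOc3HBC, and that with HBC530 came to 0.12 without HBC530 replicate 3, -0.07 without DMSO replicate 1 and -0.02 without HBC530 replicate 2. The adjusted p of STARD4 and SCAP was 0.454 at the lowest by edgeR.

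The transcripts of the SREBP factors themselves, of INSIG2 and of MYLIP had no unadjusted p under 0.05 with either ligand over all 6 libraries. SREBF1 had log2 fold changes of 0.23 and 0.08, and SREBF2 of -0.06 and -0.23, with HBC530 and MsOc3HBC. INSIG2, which is the form not driven by SREBP in most cells, had -0.13 and 0.04. MYLIP, which marks lipoprotein receptors for degradation, had -0.14 and -0.04. Without replicate 3 of the ligand SREBF1 was at 0.32 with HBC530 (unadjusted p = 0.0360 by edgeR) and 0.19 with MsOc3HBC, and SREBF2 at 0.06 and -0.11. INSIG2 was then at -0.19 (unadjusted p = 0.0430 by edgeR) and -0.02, and MYLIP at -0.09 and 0.01. The median of the 7 regulators and uptake genes was -0.13 with HBC530 and -0.18 with MsOc3HBC, and 5 of 7 were negative with each ligand.

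The LXR efflux transporters carried too few counts to show a change of the size seen in the other members. ABCA1, which loads cholesterol onto lipid-poor apolipoproteins, was at 0.633, 0.317 and 0.353 CPM with DMSO, 0.419, 0.398 and 0.152 with HBC530 and 0.561, 0.695 and 0.261 with MsOc3HBC. ABCG1, which exports sterol to mature lipoprotein, was at 0.240, 0.334 and 0.208 CPM with DMSO, 0.305, 0.225 and 0.243 with HBC530 and 0.135, 0.110 and 0.299 with MsOc3HBC. The groups overlapped for both genes. On the log2 scale the 95% confidence interval was -1.14 to 0.55 for ABCA1 with HBC530 and -0.45 to 1.16 with MsOc3HBC, and -0.73 to 0.69 and -1.65 to 0.27 for ABCG1. Leaving out replicate 3 of the ligand put ABCA1, at -0.30 with HBC530 over all 6 libraries, at -0.04, and its 0.36 with MsOc3HBC at 0.59. For ABCG1 the -0.02 with HBC530 became 0.01 and the -0.69 with MsOc3HBC became -1.11, the last with an unadjusted p of 0.0320 by edgeR.

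All 7 fatty acid enzymes had negative log2 fold changes with each ligand, with medians of -0.14 for HBC530 and -0.26 for MsOc3HBC. By library, 4, 4 and 7 of the 7 lay under the DMSO mean in HBC530 replicates 1, 2 and 3. Their medians on the log2 scale were -0.09, -0.07 and -0.49. In the MsOc3HBC libraries it was 7, 6 and 7, with medians of -0.28, -0.06 and -0.39. Shares of all genes are not given for these counts by library. ACLY, which makes cytosolic acetyl-CoA from citrate, was at 729, 710.0 and 703 CPM with DMSO, 660.1, 681 and 502 with HBC530 and 582, 670.2 and 498 with MsOc3HBC. SCD, the stearoyl-CoA desaturase, was at 802, 734 and 713 CPM with DMSO, 644, 705 and 532 with HBC530 and 615, 691 and 569 with MsOc3HBC. For both genes every ligand library lay under every DMSO library, and replicate 3 was the lowest of each ligand. The log2 fold change of ACLY was -0.22 ± 0.11 with HBC530, -0.08 without replicate 3, and -0.29 ± 0.11 with MsOc3HBC, -0.19 without replicate 3. For SCD the same values were -0.26 ± 0.11 and -0.15, and -0.26 ± 0.10 and -0.20. ELOVL6, which lengthens palmitate, was at 60.9, 52.5 and 52.0 CPM with DMSO, 51.7, 49.6 and 44.2 with HBC530 and 42.7, 47.9 and 43.7 with MsOc3HBC, again with no overlap with DMSO. Its log2 fold change was -0.18 ± 0.10 with HBC530, -0.11 without replicate 3, and -0.30 ± 0.10 with MsOc3HBC. The lowest adjusted p of ACLY, SCD and ELOVL6 over both ligands was 0.347 by edgeR. The desaturases FADS1 and FADS2 had -0.14 and -0.01 with HBC530, and -0.18 and -0.14 with MsOc3HBC, and without HBC530 replicate 3 FADS2 was at 0.07. FADS1 and FADS2 overlap each other on opposite strands over 490 exonic bases.

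**Figure D3:**
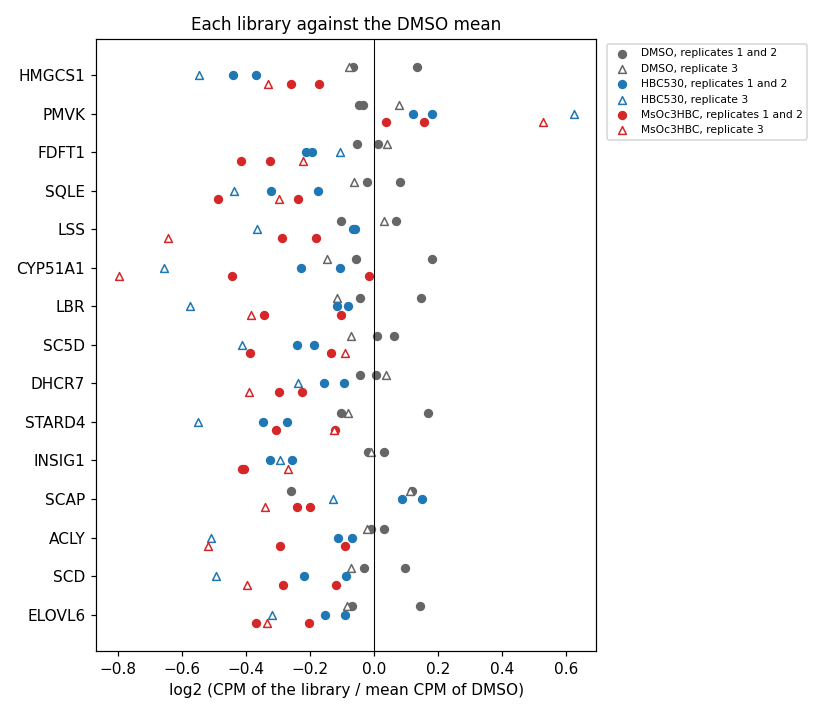
Each library of the 15 members with an unadjusted p under 0.05 in at least 1 comparison, as log2 of its CPM over the mean CPM of the DMSO libraries. Circles are replicates 1 and 2 and open triangles replicate 3, for DMSO (grey), HBC530 (blue) and MsOc3HBC (red), and for INSIG1 all ligand points lie left of all DMSO points.

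FASN and ACACA, the synthase and the carboxylase at the core of fatty acid synthesis, depended on replicate 3 of the ligands. FASN was at 831, 1024 and 1035 CPM with DMSO, 1034, 1076 and 629.7 with HBC530 and 858, 927 and 474 with MsOc3HBC. The first 2 libraries of each ligand lay within or above the DMSO range, and the third library lay below it. The log2 fold change of FASN was -0.08 ± 0.18 with HBC530 and -0.35 ± 0.21 with MsOc3HBC, and 0.14 and -0.11 without replicate 3 of the ligand. ACACA went from -0.08 and -0.09 to 0.09 and 0.07.

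Replicate 3 differed from replicates 1 and 2 to the same side in both ligands for FASN, ACACA, CYP51A1, ACLY, PMVK and EBP, among others. FASN lay -0.74 on the log2 scale from the mean of replicates 1 and 2 with HBC530 and -0.91 with MsOc3HBC, ACACA -0.58 and -0.53, CYP51A1 -0.49 and -0.57 and ACLY -0.42 and -0.33. On the other side were PMVK at 0.47 and 0.43 and EBP at 0.36 and 0.38. INSIG1, at -0.0039 and 0.14, lay closer to its replicates 1 and 2. The sides also differed for SQLE at -0.19 and 0.07, SC5D at -0.20 and 0.17, STARD4 at -0.24 and 0.09 and ABCG1 at -0.11 and 1.30. How alike the order of members was in the ligands was not measured. Of the 20 sterol enzymes, 12 lay under the DMSO mean in replicate 3 of HBC530 and 13 in that of MsOc3HBC. In replicates 1 and 2 it was 17 and 18 with HBC530, and 18 in both with MsOc3HBC. Shares of all genes are not given for these counts, so they cannot be read as a trait of the sterol enzymes. Leaving out replicate 3 of the ligand turned the sign or moved the fold change against DMSO by over 1.5 times for 22 of the 36 members with HBC530, of which 9 turned, and for 18 with MsOc3HBC, of which 4 turned. The part of depth or RNA quality in this was not tested.

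**Figure D4:**
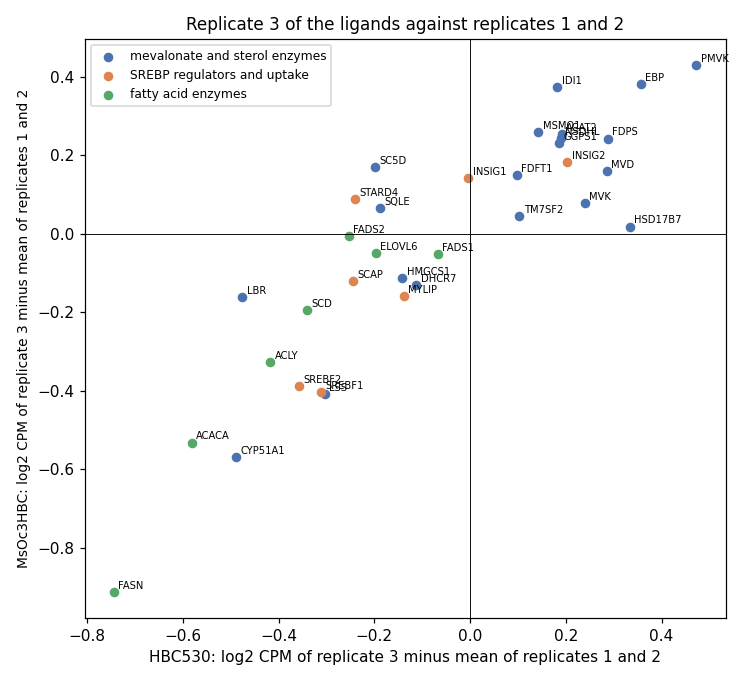
Log2 CPM of replicate 3 minus the mean of replicates 1 and 2, for HBC530 (horizontal) and MsOc3HBC (vertical), for 34 genes without the efflux transporters, coloured by class. FASN lies lowest at -0.74 and -0.91, and PMVK highest at 0.47 and 0.43.

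The ligands differ by the reactive arm and were compared with each other at the same dose and time, as the 1 pair of compounds in the series. The 36 members had a median log2 difference of -0.07, MsOc3HBC minus HBC530, beside 0.017 over 17397 genes tested, and 25 were negative. By edgeR without a block 0 members had an adjusted p under 0.05, as did 0% of all genes. DESeq2 and limma-voom also called 0 members, and their shares of all genes are not given. At an unadjusted p under 0.05, SCAP was lower with MsOc3HBC, beside 4.22% of all genes, and 0 members were higher, beside 3.10%. MVK, FDFT1 and SCAP had all MsOc3HBC libraries under all HBC530 libraries, beside 8.50% of all genes, and HMGCS1 had them above, beside 6.85%.

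With the replicate as a block, 5 members had an adjusted p under 0.05, 4 of them lower with MsOc3HBC, beside 6.90% of all genes, and 1 higher, beside 4.54%. SCAP was lower at a log2 difference of -0.30 ± 0.05 (adjusted p = 0.00365 by edgeR), FASN at -0.30 ± 0.05 (0.00365), LSS at -0.20 ± 0.05 (0.0207) and SREBF2 at -0.17 ± 0.05 (0.0267). HMGCS1 was higher with MsOc3HBC at 0.20 ± 0.05 (0.0179). In every one of the 3 pairs SCAP, FASN, LSS and SREBF2 were lower with MsOc3HBC, and HMGCS1 higher. The blocked fit called these genes from the same pairs, so the shared sign is a description and no separate support. FASN and SREBF2 are named here after their values were seen. When the dependence on GC content and gene length was also taken out of the blocked fit, 0 members were called, beside 1.85% of all genes, and the log2 differences came to -0.18 for SCAP, -0.12 for FASN, -0.12 for LSS, -0.10 for SREBF2 and 0.10 for HMGCS1. The adjusted p of these 5 over 17 alternatives reached 1.00 at the highest, where GC and length trends were removed without the block. Leaving out replicate 3 of both ligands gave 3 called members, FDFT1, SCAP and FASN, beside 9.16% of all genes. It turned the sign or moved the difference by over 1.5 times for 15 of the 36, of which FDPS and SC5D turned. Of these, STARD4 went from 0.20 to 0.09, FADS2 from -0.13 to -0.22, LBR from -0.03 to -0.13, SQLE from -0.03 to -0.12, HSD17B7 from -0.12 to -0.01 and INSIG1 from -0.07 to -0.13. ABCG1 went from -0.67 to -1.13, MSMO1 from 0.13 to 0.08, IDI1 from 0.10 to 0.02, SC5D from 0.08 to -0.05 and ACAT2 from 0.07 to 0.04. FDPS, ACACA, SCD and TM7SF2 stayed between -0.05 and 0.02 in both. The unadjusted p without these libraries was 0.0125 for FADS2, 0.0306 for INSIG1 and 0.0447 for ABCG1 by edgeR.

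For the other 31 members, none of which was called with the block, the intervals describe the blocked fit alone. The blocked 95% confidence interval of the log2 difference did not contain 0 for 11 of them. This is a count without adjustment. Over all 36 members the blocked fit had 11 lower and 5 higher at an unadjusted p under 0.05, beside 13.9 and 13.3% of all genes. On the negative side it was -0.25 to -0.05 for FDFT1, -0.24 to -0.04 for DHCR7, -0.30 to -0.05 for MVK, -0.29 to -0.06 for MVD, -0.25 to -0.05 for EBP, -0.21 to -0.0017 for NSDHL and -0.29 to -0.02 for SREBF1. On the positive side it was 0.05 to 0.26 for GGPS1, 0.01 to 0.24 for MSMO1, 0.01 to 0.33 for INSIG2 and 0.01 to 1.29 for ABCA1. Their adjusted p ran from 0.0510 for GGPS1 to 0.180 for ABCA1 by edgeR. With GC and length trends also removed from the blocked fit, MVD was at -0.01, outside its interval, and MVK at -0.07. The values of the other uncalled members in that fit are not given here. The interval contained 0 for the other 20, among them INSIG1 at -0.18 to 0.04, SQLE at -0.15 to 0.09, CYP51A1 at -0.22 to 0.06, LBR at -0.16 to 0.12 and SC5D at -0.09 to 0.23. For the fatty acid enzymes it was -0.10 to 0.10 for SCD, -0.17 to 0.03 for ACLY and -0.11 to 0.10 for ACACA. PMVK had -0.19 to 0.06 and STARD4 -0.0017 to 0.39. FDPS, at -0.10 to 0.10, had an interval among the narrowest in the blocked fit.

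**Figure D5:**
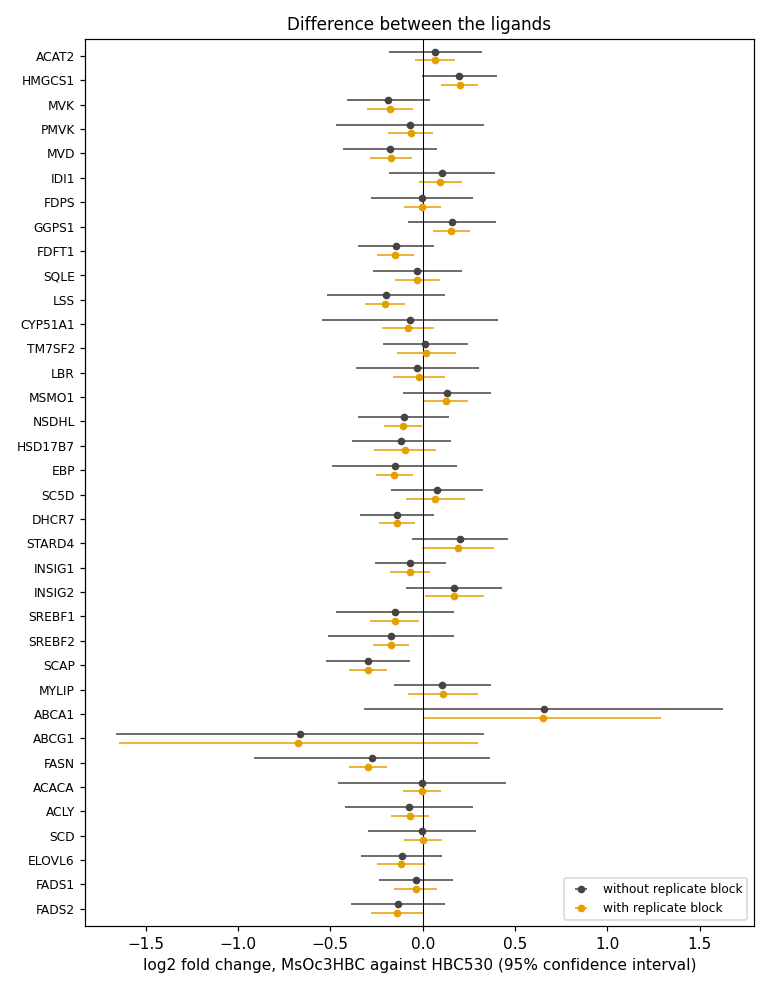
Log2 fold change of the 36 genes between the ligands, MsOc3HBC against HBC530, with 95% confidence intervals, without (dark) and with (orange) the replicate block. The block narrows most intervals, as for FASN from -0.92 to 0.36 to -0.40 to -0.19.

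A wider list of 29 genes around the pathway held SREBP proteases and sterol-sensing ubiquitin ligases, the LXR receptors, further lipid enzymes, sterol handling proteins and other branches of mevalonate use. Of these, 0 had an unadjusted p under 0.05 with HBC530 or with MsOc3HBC against DMSO, and the median log2 fold changes were -0.01 and -0.05. Between the ligands 1 was lower with MsOc3HBC, the mitochondrial citrate carrier SLC25A1, with a log2 difference of -0.24 ± 0.10 and an adjusted p of 0.672 by edgeR. With the replicate block its adjusted p was 0.00735 by edgeR, at the same log2 difference of -0.24. That of the elongase ELOVL1, named after its values were seen, was 0.0355 at -0.20. In that fit 6.90% of all genes were lower with an adjusted p under 0.05. With GC and length trends also removed, SLC25A1 came to -0.06 (adjusted p = 0.580 by edgeR) and ELOVL1 to -0.12 (0.350).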

How the data were processed

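RNA of 9 HEK293T libraries was sequenced as paired ends by the authors. According to the submitters' processing notes and the study's methods, the authors used Trimmomatic 0.36 for trimming, STAR 2.5.2b for alignment to GRCh38 and featureCounts of Subread 1.5.2 for counting reads that hit 1 gene. The annotation release and the strand setting are not given in the sources used here. The deposited count files hold raw counts of 57500 genes, with 28056929 to 62205366 counts per library. The deposited tables also hold signal columns, counts that the authors divided by DESeq2 size factors, which served here to check the sample names, and the authors' own fold changes and p-values, which were not used.

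Each comparison was fitted on its 6 libraries with edgeR 4.0.16 in R 4.3.3, using filterByExpr at its defaults, TMM factors, the quasi-likelihood F test and Benjamini-Hochberg adjustment over all genes tested. Intervals are at 95%. CPM and RPKM were computed from the counts with TMM factors over all 9 libraries. Gene classes and the wider list were set by hand. The members, lists, tests and naming rule were chosen with earlier results of these data known. All 36 genes are accounted for, and those with an unadjusted p under 0.05 in at least 1 comparison, at most 18, are described in full, which came to 15.

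Replicate numbers come from the sample labels. Same-numbered libraries of HBC530 and MsOc3HBC deviated from their group means together across 18041 genes (r = 0.167, 0.368 and 0.433, all over 0.1), so the block is given there. Deviations from a mean of 3 libraries sum to 0, so replicate 3 enters every r and they are not separate evidence of pairing. The block was thus chosen from these data, and the calls made with it rest on that choice. For the comparisons with DMSO not every r was over 0.1. Replicates of a treatment differed beyond counting noise in every pair, at 5.71 to 62.0 chi-square per gene. Alternatives were DESeq2 1.42.0, limma-voom (limma 3.58.1), other scalings and filters, all 9 libraries in 1 fit, the replicate block, the removal of GC and length trends (splines with 5 degrees of freedom) and each library left out. Results for 1 gene of the wider list are not reported here.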

Additional observations from a re-analysis of the deposited data

How the results depend on the processing

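At this depth 34 of the 36 genes had at least 186 counts in every library, while ABCA1 and ABCG1 had at most 38 and 20, and dropped out of the fit with at least 10 counts in every library. Over all genes the replicates of a treatment differed beyond counting noise, with replicate 3 of the ligands apart from the rest. What kept the other members from being called was not tested. Counting without a known strand setting leaves genes with an antisense partner uncertain. The same-strand overlap with LRRD1 leaves CYP51A1 uncertain under either setting. Of the class medians and counts of members compared with an alternative, 277 stayed within the spread or within 1.5 times and 41 moved. Of the fold changes of the 15 members described in full, 24 reversed their sign, 2 of them for HBC530 against DMSO and 22 between the ligands, 11 passed the threshold only under the alternative, and 700 kept direction and side, while the other 21 members are not in these counts. The cause was not tested for any of these.

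With HBC530 against DMSO, the number of members with an adjusted p under 0.05 was 1 with DESeq2 and 1 with no filter, in place of 0. The number lower at an unadjusted p under 0.05, 6 as reported, was 10 with GC and length trends removed, 10 with these removed and the replicate block, and 10 with no filter, beside 3.27, 4.57 and 3.32% of all genes. The number higher, 1 as reported, was 2 with GC and length removed and the block, beside 4.82% of all genes, and 0 with all 9 libraries. Leaving out 1 library gave 4 to 11 lower (11 without HBC530 replicate 3, beside 2.21% of all genes) and 0 to 1 higher. The log2 fold change of SCAP then ran from -0.074 to 0.12. Where no share stands beside a count, it is not given here.

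With MsOc3HBC against DMSO, 1 member had an adjusted p under 0.05 with DESeq2 and 1 with GC and length trends removed, in place of 0, and 1 was higher at an unadjusted p with no filter and 1 with upper-quartile scaling. Leaving out 1 library gave 0 to 2 members with an adjusted p under 0.05 (2 without MsOc3HBC replicate 3, beside 0.421% of all genes). At an unadjusted p it gave 5 to 17 lower (17 without MsOc3HBC replicate 3, beside 7.20%) and 0 to 1 higher. With no overlap, 12 to 21 were lower (21 without DMSO replicate 1 or without MsOc3HBC replicate 3, beside 17.0 and 16.4% of all genes). The median of the SREBP regulators and uptake genes ran from -0.21 to -0.093. Shares of all genes for the other fits are not given. The block, which the replicate numbers do not warrant against DMSO, left 0 members with an adjusted p under 0.05 for either ligand.

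Between the ligands, the replicate block gave 5 members with an adjusted p under 0.05 in place of 0, and 11 lower and 5 higher at an unadjusted p in place of 1 and 0, beside 13.9 and 13.3% of all genes. With the block and GC and length trends removed it was 11 lower and 1 higher, beside 10.3 and 6.89% of all genes. Without replicate 3 of both ligands it was 3 at an adjusted p, 14 lower and 2 higher, the latter beside 13.4 and 10.7% of all genes. No filter gave 2 lower, beside 2.63% of all genes, and 10 counts in every library and upper-quartile scaling gave 1 higher each. Leaving out 1 library gave 0 to 3 lower and 0 to 2 higher at an unadjusted p. It gave 3 to 10 lower with no overlap (10 without HBC530 replicate 3, beside 15.6% of all genes). Where no share stands beside a count, it is not given here. The log2 difference of SC5D reversed to -0.057 with GC and length removed, -0.065 with the block as well and -0.048 without replicate 3 of both ligands, and that of SCD to 0.00286 with limma-voom, 0.00148 with the replicate block and 0.00795 with upper-quartile scaling. With 1 library left out it ran from -0.22 to 0.11 for PMVK, -0.088 to 0.044 for SQLE, -0.29 to 0.099 for CYP51A1, -0.17 to 0.057 for LBR, -0.20 to 0.030 for ACLY and -0.11 to 0.088 for SCD.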
